A study of Rattus norvegicus with 12 samples.

Results

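Bone of female rats fed soy protein isolate (SPI) was compared directly with bone of rats given 17β-estradiol (E2) on a casein diet, over every gene on the array. The comparison used the 3 pools titled SPI-fed and the 3 pools titled E2-fed, 6 of the 12 arrays of the series, and did not use the casein control (CAS) pools in any test. The animals were Sprague-Dawley rats, treated from postnatal day 21 by the labels and killed before puberty on postnatal day 34. The SPI group ate a purified AIN-93G diet whose protein was SPI and received no E2, and the E2 group ate the matching diet made with casein and received E2 from an osmotic pump under the skin. The control group ate the casein diet alone, and the last group (SPI+E2) had both treatments. Mothers of all 4 groups ate casein. The groups compared therefore differed in diet protein and in hormone at once. RNA came from the right tibia after its marrow was aspirated, and each array carried RNA pooled from 2 to 3 rats, so that p-values reflect how pools, rather than individual rats, varied.

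Estradiol acts through nuclear receptors that bind DNA and change transcription, and in the growing skeleton it slows growth plate cartilage and lowers bone resorption. Soy protein isolate carries isoflavones, plant compounds that bind the same receptors more weakly and favour estrogen receptor β, together with a protein and peptide make-up unlike that of casein. A whole tibia holds bone cells, growth plate cartilage, residual marrow, vessels, nerve and attached muscle and tendon. In such bulk RNA fewer cells of a type and less RNA per cell cannot be told apart.

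Expression values were log2 values by the study's methods, centred on each probe set's median over the 12 arrays, so that 0 is the middle of the series and no absolute level remains. The label "bone" could therefore not be checked against the levels of bone markers, and whether a gene was near background is unknown. The deposited table does not state the base of its logarithm, and every fold given here assumes base 2. Differences are SPI minus E2 in log2 units, positive where SPI was higher, with the standard error (SE) of the limma fit over 3 pools against 3. A call means an adjusted p below 0.05 (Benjamini-Hochberg over all genes), and a gene's value is the mean of its probe sets. Pools of one group resembled each other more than pools of the other group, with correlations over probe sets of 0.341 to 0.541 within SPI, 0.397 to 0.514 within E2 and -0.276 to -0.0406 between them. Centring each probe set over the 12 arrays by itself lowers correlations between groups, so their negative sign is not read as opposite profiles. SPI pool 1 stood apart, with an interquartile range of 0.229 against 0.128 to 0.163 in the other 5 pools. Counts without it are given for all genes and for part of the lists, and some lists without such a count also changed.

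SPI and E2 bone differed in many genes, mostly by small amounts. Of 14217 genes, 2470 (17.4%) were called, 1125 (7.91%) higher with SPI and 1345 (9.46%) higher with E2. The fit without SPI pool 1 called 2241 genes, and the fits without SPI pool 2 or E2 pools 1, 2 and 3 called 1445, 1186, 1446 and 1238. The 5th and 95th percentiles of the differences were -0.30 and 0.29, and 149 genes (1.05%) reached 1.5-fold, 80 of them (0.563%) higher with SPI and 69 (0.485%) higher with E2. At 2-fold the sides were unequal, with 18 genes (0.127%) higher with SPI and 3 (0.0211%) higher with E2. Of the 31042 probe sets, 3190 (10.3%) were called and 318 (1.02%) reached 1.5-fold, which would be 1375 if the deposited values were natural logarithms. The 3 SPI pools lay wholly above or wholly below the 3 E2 pools for 5556 genes (39.1%), with SPI above in 18.9% and E2 above in 20.1% of all genes. The exact permutation test of a single gene cannot go below p = 0.1 with 3 pools against 3.

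The same difference can arise from either treatment, so the control pools were set beside the called genes as a description. Among the 1125 genes higher with SPI, 629 had their SPI mean above the CAS mean and their E2 mean below it, 253 had both above and 243 had both below. Among the 1345 genes higher with E2, 956 had SPI below CAS and E2 above it, 325 had both below and 64 had both above. Genes with SPI and E2 on opposite sides of the control thus made up the larger share of the called genes on each side. Choosing genes for a gap between SPI and E2 by itself favours a control that lies between them. The share over all genes was not counted, so no opposite action of the treatments is read from these counts. Of 717 called genes with more than 1 probe set, all probe sets had the same sign in 673.

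**Figure D1:**
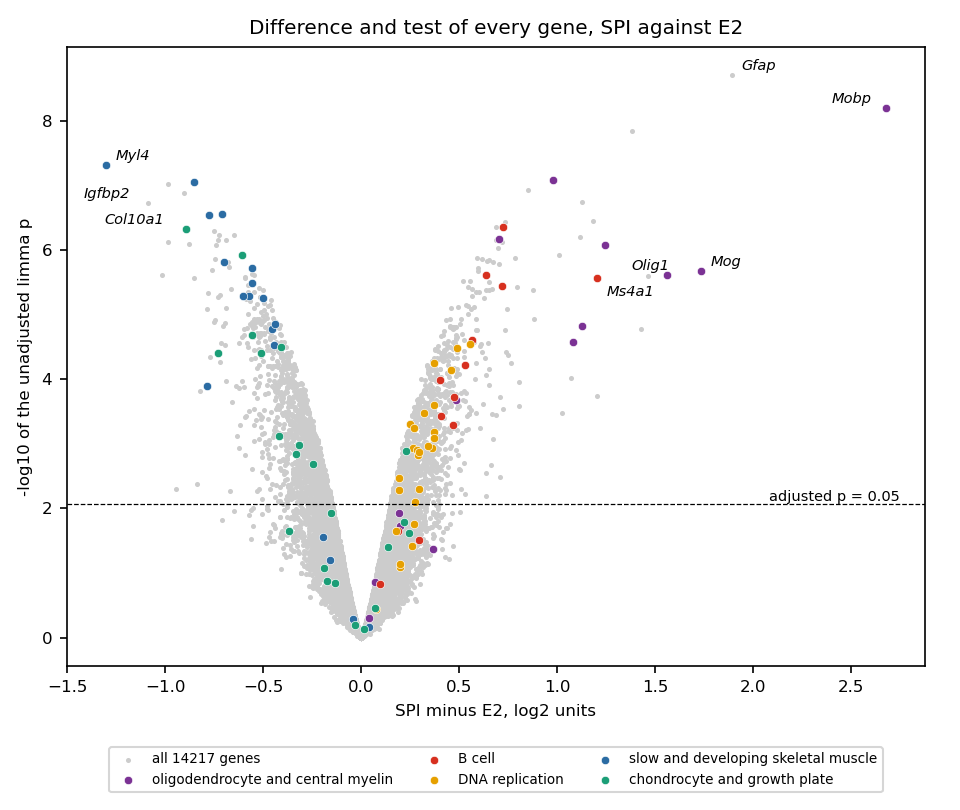
Each point is 1 of 14217 genes, with SPI minus E2 in log2 units on the x axis and -log10 of the unadjusted limma p on the y axis, and the dashed line marks an adjusted p of 0.05. Members of 5 gene lists are coloured, with central myelin genes (9 of 14 called) spread to the far right and genes of slow and developing muscle (14 of 18 called) to the left.

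The largest differences of all were in genes of central nervous system glia, which were higher with SPI. Mobp, a protein of central myelin, was at 0.91, 1.25 and 1.06 in the 3 SPI pools and at -1.60, -1.51 and -1.71 in the 3 E2 pools, a difference of 2.68 (SE 0.0929, 6.41-fold, adjusted p = 4.56e-05). Its 3 probe sets gave 2.57 to 2.84, and the CAS pools lay between the groups at a mean of 0.16. Gfap, the intermediate filament of astrocytes, was at 0.94, 0.81 and 0.85 with SPI and -0.97, -1.01 and -1.09 with E2 (difference 1.89, SE 0.0559, adjusted p = 2.79e-05). Mog, a glycoprotein on the outer surface of central myelin, was at 0.82, 0.74 and 0.97 with SPI and -1.04, -0.57 and -1.06 with E2 (difference 1.73, SE 0.133, adjusted p = 0.00056). In all 3 genes the pools were far apart and the control pools lay between them.

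Of 14 oligodendrocyte and central myelin genes measured, 9 were called higher with SPI, 0 higher with E2 and 5 were not past the test, against 7.91% and 9.46% of all genes. Their median difference was 0.84, where the median of all genes was 0.0086. The SPI pools lay wholly above the E2 pools in 13 of the 14, against 18.9% of all genes. The same count of 9 was called in each fit without 1 of the 6 pools. Besides Mobp and Mog the called members were Olig1, a transcription factor of the oligodendrocyte lineage (1.56), Mag, a myelin adhesion protein (1.25), Opalin (1.13), Ermn (1.08), Cldn11, the tight junction protein of central myelin (0.98), Mbp (0.70) and Cnp (0.49). Ermn and Cldn11 had probe sets that differed in size, from 0.38 to 1.84 and from 0.47 to 1.49. The 5 not past were Nkx6-2 (0.37), Olig2 (0.20), Tspan2 (0.19), Mal (0.07) and Ugt8 (0.04).

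Averaged over the 14 genes, the SPI pools were at 0.60 to 0.65, the E2 pools at -0.29 to -0.22 and the CAS pools at -0.06 to 0.01. Astrocyte genes other than Gfap were mixed, with 3 of 9 called higher with SPI (Gfap, Fabp7 at 0.34 and S100b at 0.21), 1 without E2 pool 1, 1 without E2 pool 2, and a median of 0.21. Some of the 10 largest differences outside these lists are in genes active in brain. Klk6, a secreted protease abundant in oligodendrocytes, differed by 1.47 (SE 0.115, adjusted p = 6e-04), and Slc12a5, the chloride exporter of central neurons, by 1.39 (SE 0.0537, adjusted p = 6.93e-05). For Slc12a5 the SPI pools were at 1.01, 1.14 and 0.99 and the E2 pools at -0.33, -0.32 and -0.37, with no overlap, by the rule that chose the gene. Itih3, which encodes a hyaluronan-binding plasma protein chain, was at 0.78, 1.21 and 1.40 with SPI and -0.31, -0.20 and -0.39 with E2 (difference 1.43, SE 0.147, adjusted p = 0.00135), and Cfap20dc differed by 1.20 (SE 0.175, adjusted p = 0.00468).

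**Figure D2:**
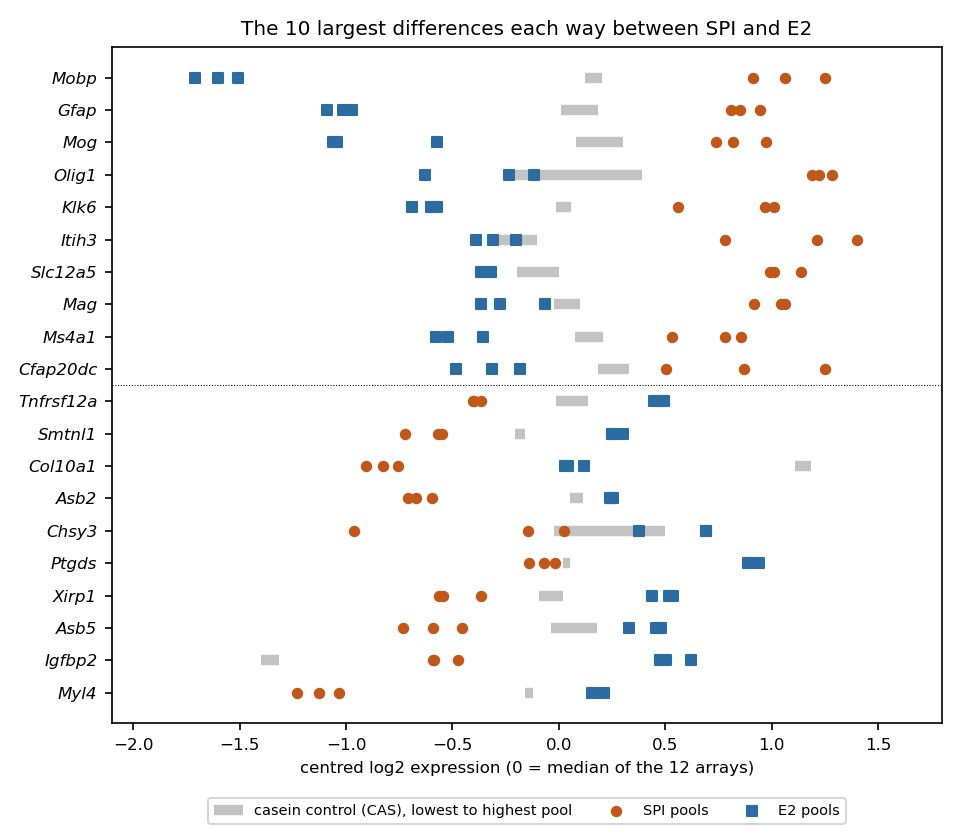
Centred log2 expression (x axis) of the 10 genes with the largest difference each way (rows) in each SPI pool (circles) and E2 pool (squares), with the range of the 3 CAS pools as a grey bar. The SPI and E2 pools do not overlap in any of the 20 genes, by the rule that chose them, and Mobp is the widest, from -1.71 in an E2 pool to 1.25 in an SPI pool.

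Many neuron genes were also higher with SPI. Of 22 neuron genes, 13 were called higher with SPI and 0 higher with E2 (median 0.25), 12 without SPI pool 1 and 8 without E2 pool 1. Over all genes the shares called were 7.91% and 9.46%. Snap25, a protein of the synaptic vesicle fusion machinery, was at 0.91, 0.83 and 0.87 in the SPI pools and 0.21, 0.27 and 0.20 in the E2 pools (difference 0.64, SE 0.0469, 1.56-fold, adjusted p = 0.00048). Both groups lay above the CAS mean of -0.44 for this gene, unlike the myelin genes. Ina, a neuronal intermediate filament, differed by 0.59, Gpm6a, a neuronal membrane glycoprotein, by 0.53, Chgb, a secretory granule protein, by 0.50 and the dendritic protein Map2 by 0.49. Tubb3 (0.03) and Scg2 (-0.08) were not past the test.

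The counts for peripheral nerve are small and, beside the 17.4% of all genes called, nothing particular to these lists is read from them. Sensory neuron genes had 1 of 12 called, Calca, and a median of 0.07, and Calca was lost in each fit without 1 pool. Scn10a (0.06) and Scn11a (0.01), sodium channels of pain fibres, and the peripheral filament gene Prph (0.13) were not past the test. In Schwann cell and peripheral myelin genes 2 of 10 were higher with SPI (Ngfr 0.26, L1cam 0.21) and 1 higher with E2 (Egr2 -0.22), with a median of 0.01, and the 2 became 1 without any 1 SPI pool or E2 pool 3 and 0 without E2 pool 1 or 2. Egr2 was called in the fit without SPI pool 3 and in none of the other 5. Averaged over each list, the SPI and E2 pools both lay well above the control: sensory neuron genes were at 0.29 to 0.34 with SPI, 0.30 to 0.31 with E2 and -0.43 to -0.40 with CAS. Of 10 sympathetic neuron genes, 3 were called higher with SPI, namely the neuropeptides Npy (0.64) and Vip (0.55) and Dbh, the enzyme that makes noradrenaline (0.37). The part of nerve or central tissue in the RNA of each pool was not tested.

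**Figure D3:**
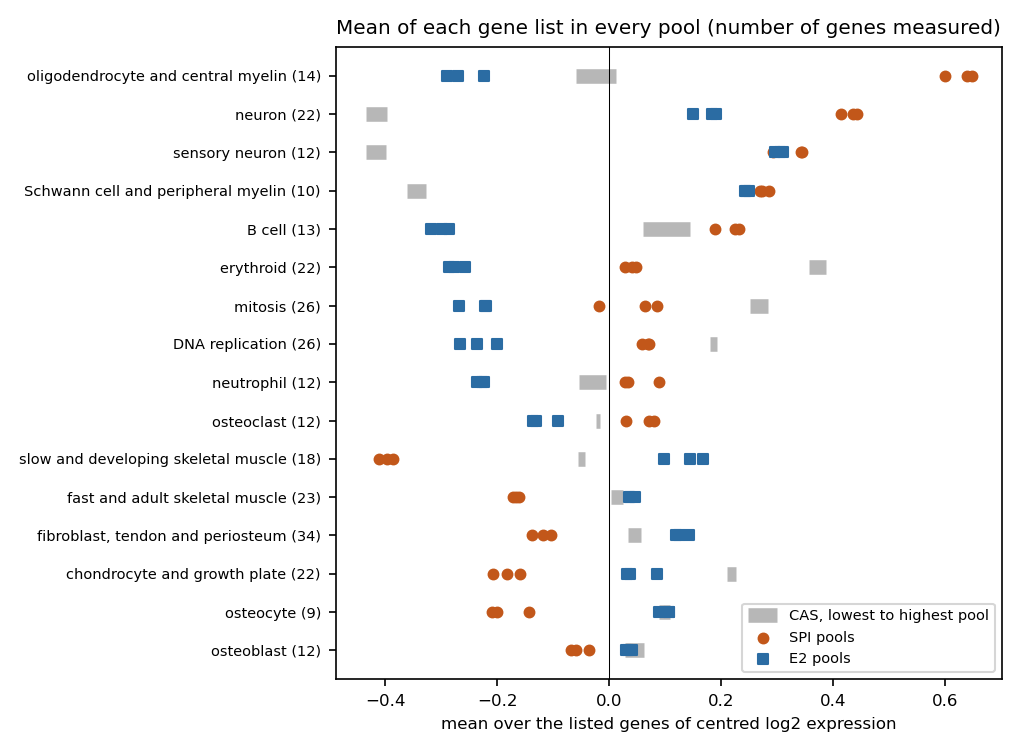
Mean of centred log2 expression over the measured genes of 16 lists (rows, with the number of genes) in each SPI pool (circles) and E2 pool (squares), and the range over the CAS pools as a grey bar. Central myelin pools lie at 0.60 to 0.65 with SPI and -0.29 to -0.22 with E2, while sensory neuron pools of both groups lie near 0.3.

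Blood cell genes were higher with SPI in several lineages, most of all in B cells. Ms4a1, which encodes the B cell surface protein CD20, was at 0.53, 0.78 and 0.85 with SPI and -0.58, -0.52 and -0.35 with E2 (difference 1.21, SE 0.0957, 2.31-fold, adjusted p = 0.000608). Of 13 B cell genes, 10 were called higher with SPI and 0 higher with E2, with a median of 0.47, and 10 or 11 were called in each fit without 1 pool. They included Blnk, an adaptor of B cell receptor signalling (0.73), the coactivator Pou2af1 (0.72), the pre-B cell receptor component Vpreb3 (0.64) and the receptor subunit Cd79b (0.53). Over the list the SPI pools were at 0.19 to 0.23, the CAS pools at 0.06 to 0.14 and the E2 pools at -0.32 to -0.29. T and cytotoxic cell genes had 2 of 16 called higher with SPI, the receptor subunit Cd3g (0.80) and Nkg7 (0.36), and a median of 0.14, and 4 were called without SPI pool 3. Beside the 7.91% of all genes called higher with SPI, nothing particular to the T cell list is read from this count. Myb, a transcription factor of blood progenitors, was at 0.18, 0.35 and 0.53 with SPI and -0.51, -0.56 and -0.51 with E2 (difference 0.88, SE 0.0862, adjusted p = 0.00128).

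Erythroid genes followed the same order between the treatments but lay below the control in both. Of 22 measured, 18 were called higher with SPI and 0 higher with E2 (median 0.32, 13 to 17 without 1 pool). Alas2, the first enzyme of heme synthesis in red cell precursors, was at 0.21, 0.18 and 0.10 with SPI and -0.49, -0.54 and -0.49 with E2 (difference 0.67, SE 0.0492, adjusted p = 0.00048). The mitochondrial iron carrier Slc25a37 differed by 0.55, Hemgn by 0.49, the anion exchanger Slc4a1 by 0.42, the erythroid factor Klf1 by 0.42 and the β-globin gene Hbb by 0.34. List means were 0.36 to 0.39 in the CAS pools, 0.03 to 0.05 in the SPI pools and -0.29 to -0.26 in the E2 pools. Neutrophil genes had 8 of 12 higher with SPI (median 0.26, S100a8 0.47 and Camp 0.35), 7 without SPI pool 1, 3 without SPI pool 2 and 3, 3 and 4 without E2 pools 1, 2 and 3. Platelet genes had 5 of 11 higher with SPI (median 0.23), and 1 without SPI pool 2, E2 pool 1 or E2 pool 3. Macrophage genes were mixed, with 2 higher with SPI (Lyz2 0.27, Cd68 0.20), 1 higher with E2 (Cd14 -0.39) and 10 not past of 13, and 1 was higher with SPI in each fit without 1 pool. Beside the 7.91% and 9.46% of all genes called higher with SPI and with E2, nothing particular to macrophages is read from these counts. How much residual marrow each tibia held was not tested.

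Genes of cell division were higher with SPI, in both DNA replication and mitosis. Of 26 DNA replication genes 20 were called higher with SPI and 0 higher with E2 (median 0.29, 12 without E2 pool 1), and of 26 mitosis genes 18 and 0 (median 0.29). The mitosis count was 22 without SPI pool 1, 11 without SPI pool 2 and 11, 9 and 11 without E2 pools 1, 2 and 3. Over all genes 7.91% were called higher with SPI and 9.46% higher with E2. Every member of both lists had a positive difference. Cdt1, which loads the replicative helicase onto DNA, was at 0.13, 0.03 and 0.19 with SPI and -0.39, -0.52 and -0.40 with E2 (difference 0.55, SE 0.0615, adjusted p = 0.00181). Plk1, a kinase of mitotic entry, was at 0.09, 0.01 and 0.03 with SPI and -0.49, -0.52 and -0.32 with E2 (difference 0.49, SE 0.0631, adjusted p = 0.00298). Mki67, the proliferation antigen Ki-67, was at -0.02, 0.09 and 0.16 against -0.33, -0.44 and -0.35 (difference 0.45, SE 0.061, adjusted p = 0.00368). For these 3 genes no SPI pool overlapped an E2 pool, and the control means of 0.25, 0.13 and 0.28 lay above both treatments. Ccne1, the cyclin of S phase entry, differed by 0.49, the flap nuclease Fen1 by 0.46 and the helicase subunit Mcm4 by 0.37.

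Many promoters of these lists hold short sequence elements, which describes the listed genes and does not depend on the treatments. Promoter sequences of 300 bases, from 250 before the transcription start to 50 after it, were taken from RefSeq on build GRCr8, which held 11733 of the 14217 genes, with the first listed start used for each. The cell cycle homology region, searched as TTTGAA on both strands, was present in 16 of 23 mitosis promoters (69.6%), against 12.3% of the promoters of all genes tested and 18.1% of the 27457 in the table. The CCAAT box, searched as CCAAT on both strands, was in 18 of the 23 (78.3%) against 37.3% of genes tested, and 13 (56.5%) held both elements against 5.02%. An E2F site, searched as TTCCCGC on both strands, was in 10 of 24 DNA replication promoters (41.7%) and 2 of 23 mitosis promoters (8.7%), against 7.53% of genes tested. Among all 892 genes higher with SPI that had a promoter, 10.3% held the E2F site, 14.7% the cell cycle homology region and 39.2% the CCAAT box. Among the 1081 higher with E2 that had a promoter, the shares were 5.92%, 11.6% and 35.8%. Differences between these shares and those of genes tested were themselves not tested. The promoters of the 2 mitosis genes and the 1 replication gene with the largest called difference that hold these elements are shown to place the elements around the start, with the TTTGAA and CCAAT matches in capitals for Plk1 and Mki67 and the E2F match in capitals for Cdt1. They lie at chr1:186147408-186147707 on the plus strand, chr1:199952544-199952843 on the minus strand and chr19:67528999-67529298 on the plus strand.
Plk1: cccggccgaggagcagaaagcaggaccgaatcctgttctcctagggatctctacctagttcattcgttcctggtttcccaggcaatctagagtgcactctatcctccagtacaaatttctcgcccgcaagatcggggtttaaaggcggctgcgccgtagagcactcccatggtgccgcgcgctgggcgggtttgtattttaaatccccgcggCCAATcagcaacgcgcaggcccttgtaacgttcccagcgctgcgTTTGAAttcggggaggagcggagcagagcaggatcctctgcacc
Mki67: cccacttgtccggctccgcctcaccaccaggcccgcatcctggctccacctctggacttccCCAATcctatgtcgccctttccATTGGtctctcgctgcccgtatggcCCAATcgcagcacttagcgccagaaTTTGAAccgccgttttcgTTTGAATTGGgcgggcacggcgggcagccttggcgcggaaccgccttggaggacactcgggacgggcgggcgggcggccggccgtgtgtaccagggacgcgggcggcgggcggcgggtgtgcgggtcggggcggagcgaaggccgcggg
Cdt1: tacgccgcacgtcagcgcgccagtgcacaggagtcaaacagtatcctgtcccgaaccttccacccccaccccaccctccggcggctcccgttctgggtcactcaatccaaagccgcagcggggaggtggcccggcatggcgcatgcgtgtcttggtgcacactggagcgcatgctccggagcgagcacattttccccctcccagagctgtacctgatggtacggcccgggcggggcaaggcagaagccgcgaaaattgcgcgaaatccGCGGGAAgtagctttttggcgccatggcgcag
In Mki67, whose promoter holds 6 matches, a TTTGAA match and a CCAAT match on the other strand share a base. An estrogen response element, searched as its perfect palindrome with any 3 bases between the arms, was in 0 of the 892 promoters of genes higher with SPI, 0 of the 1081 of genes higher with E2 and 2 of the 11733 tested, which says only that these letters are rare in this window.

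Muscle genes were higher with E2 than with SPI, in slow and developing as well as fast fibre programs. Of 18 slow and developing skeletal muscle genes, 14 were called higher with E2 and 0 higher with SPI, with a median of -0.56, and 14 or 15 were called in each fit without 1 pool. Of 23 fast and adult muscle genes, 13 were called higher with E2 and 0 higher with SPI, with a median of -0.17, and 7, 8 and 8 were called without E2 pools 1, 2 and 3. Over all genes 9.46% were called higher with E2 and 7.91% higher with SPI. The difference between the lists was not tested. Myl4, a myosin light chain of embryonic muscle and atrium, was at -1.23, -1.13 and -1.03 with SPI and 0.15, 0.16 and 0.21 with E2 (difference -1.30, SE 0.0596, 2.47-fold, adjusted p = 0.000167). Myh3, the embryonic myosin heavy chain, was at -0.54, -0.51 and -0.52 with SPI and 0.34, 0.31 and 0.35 with E2 (difference -0.86, SE 0.0422, adjusted p = 0.000167). Both genes had control means near 0, at -0.14 and -0.05, between the treatments.

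Other called members were Chrna1, the acetylcholine receptor α subunit (-0.79), the stretch-responsive proteins Csrp3 (-0.77) and Ankrd1 (-0.70), Myod1, a master factor of the muscle lineage (-0.60), and the slow myosin Myh7 (-0.57). The major fast fibre genes Myh4 (-0.04), Acta1 (-0.08) and Ckm (-0.09) were not past the test. Outside the lists, Asb5 (-1.02) and Asb2 (-0.90), ubiquitin ligase adaptors of muscle, the actin-binding protein Xirp1 (-0.99), Smtnl1 (-0.88) and Tnfrsf12a, the receptor for TWEAK (-0.86), were among the 10 largest higher with E2. Over the slow and developing list the SPI pools were at -0.41 to -0.39, the CAS pools at -0.06 to -0.04 and the E2 pools at 0.10 to 0.17. Smooth muscle and pericyte genes had 6 of 15 higher with E2 (median -0.16, Actg2 -0.44 and Des -0.41), and 3 without SPI pool 2 or any 1 E2 pool. The amount of muscle left on each tibia was not tested. The element bound by factors such as Myod1, searched as CAGCTG, which reads the same on both strands, was in 10 of 21 fast muscle promoters (47.6%) and 5 of 13 slow and developing ones (38.5%), against 16.6% of genes tested. It was in 21.2% of genes higher with E2 and 16.6% of genes higher with SPI, a difference that was not tested. What the promoters of a list hold does not depend on the treatments. The promoter of Myl4, the slow and developing gene with the largest difference that holds it, at chr10:89975900-89976199 on the plus strand of GRCr8, is shown with the match in capitals.
Myl4: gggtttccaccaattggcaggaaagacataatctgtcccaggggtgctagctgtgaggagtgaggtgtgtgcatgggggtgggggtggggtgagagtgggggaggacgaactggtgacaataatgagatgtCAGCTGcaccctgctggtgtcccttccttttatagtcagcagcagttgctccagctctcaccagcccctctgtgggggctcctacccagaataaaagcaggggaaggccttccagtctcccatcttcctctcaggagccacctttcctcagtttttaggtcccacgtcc

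**Figure D4:**
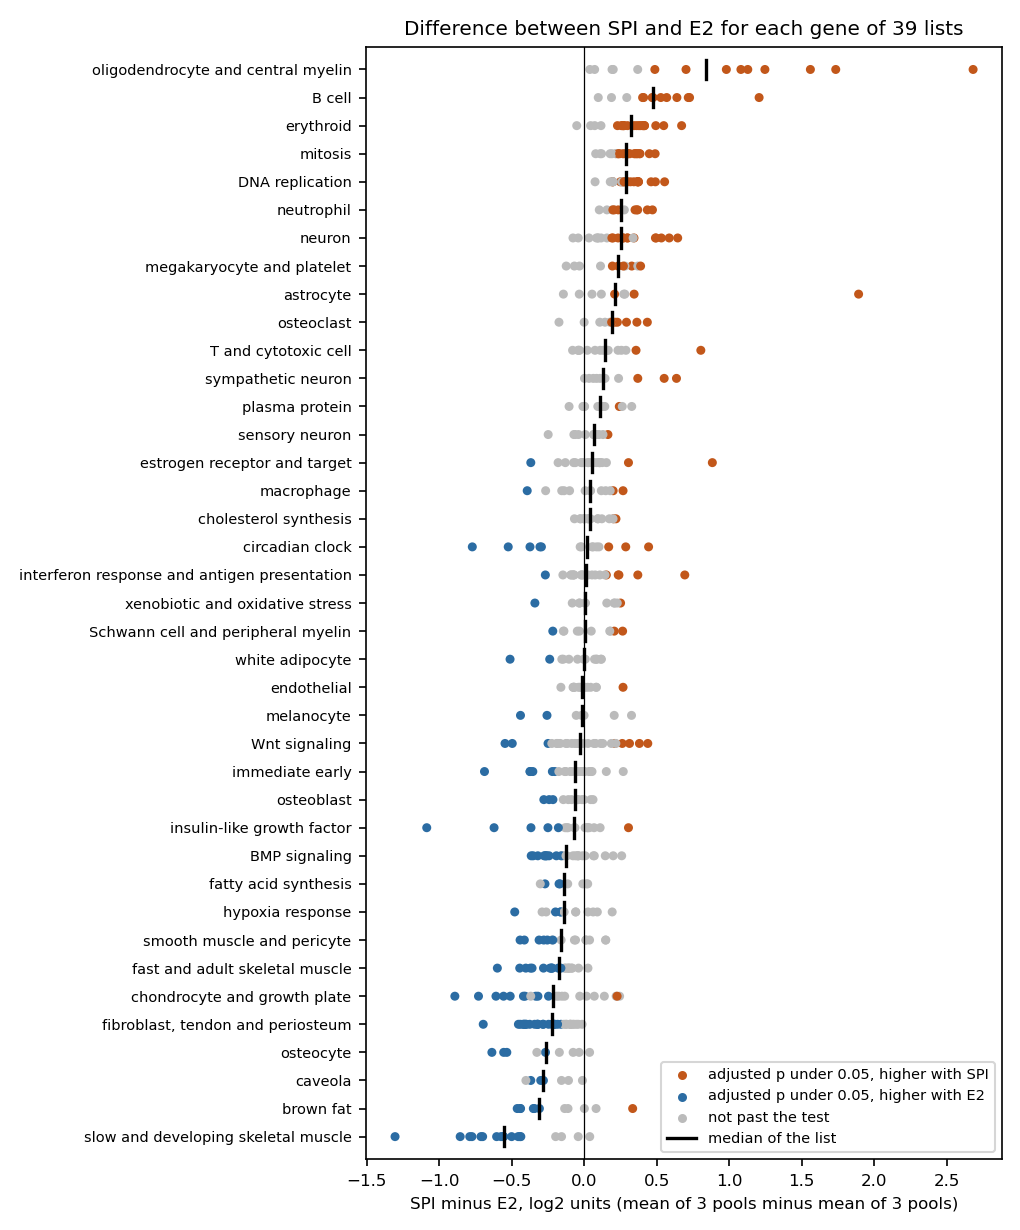
SPI minus E2 in log2 units (x axis) for every measured gene of 39 lists (rows, ordered by their median, which is the black bar), coloured by whether the gene was called higher with SPI, called higher with E2 or not past the test. The medians run from 0.84 for central myelin to -0.56 for slow and developing muscle.

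Cartilage genes of the growth plate were higher with E2 than with SPI, and both treatments lay below the control for several of them. Col10a1, the collagen of hypertrophic chondrocytes, was at -0.91, -0.76 and -0.82 with SPI and 0.04, 0.03 and 0.12 with E2 (difference -0.89, SE 0.0556, 1.86-fold, adjusted p = 0.000337), and its CAS mean was 1.16. Col2a1, the main cartilage collagen, was at -0.38, -0.46 and -0.45 with SPI and 0.04, 0.12 and 0.22 with E2 (difference -0.56, SE 0.0587, adjusted p = 0.00151), and its CAS mean was 0.29. The order in both genes was thus SPI, then E2, then the control, with no overlap of SPI and E2 pools. Of 22 measured, 10 were called higher with E2, among them Col9a1 (-0.73), the matrix protein Comp (-0.61), the link protein Hapln1 (-0.51) and the proteoglycan Acan (-0.41). The median was -0.22, and of all genes 9.46% were called higher with E2 and 7.91% higher with SPI. Only Scrg1 (0.23) was called higher with SPI, a call lost without SPI pool 2 or any 1 E2 pool and in the model of 4 groups. The list still held 1 gene called higher with SPI without SPI pool 2 or E2 pool 3. The count higher with E2 was 7 to 11 in the fits without 1 pool. The growth plate signal Ihh (0.24) was not past in the main fit.

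Bone cells did not move as one group. Osteocyte genes had 4 of 9 called higher with E2 and 0 higher with SPI (median -0.27), against 9.46% and 7.91% of all genes. Dmp1, a mineralization protein of osteocytes, was at -0.39, -0.36 and -0.43 with SPI and 0.16, 0.16 and 0.17 with E2 (difference -0.56, SE 0.0433, adjusted p = 0.000596). Phex, the endopeptidase of phosphate handling, was at -0.68, -0.36 and -0.48 against 0.24, 0.08 and 0.07 (difference -0.64, SE 0.0879, adjusted p = 0.00389), and Mepe differed by -0.53. In these genes the SPI pools were the low ones, with CAS means of 0.06, 0.28 and 0.10. Sost, the osteocyte inhibitor of Wnt signaling, overlapped between the groups at 0.20, 0.17 and -0.19 with SPI and 0.01, 0.09 and -0.03 with E2 (difference 0.04, SE 0.103, adjusted p = 0.833), and its probe sets went opposite ways, at -0.26 and 0.34. The matrix and osteoblast genes Col1a1 (-0.02), Bglap (-0.04), Spp1 and Alpl (0.06) were not past the test, and 3 of 12 osteoblast genes, Omd, Phospho1 and Col24a1, were called higher with E2 (-0.22, -0.24 and -0.28). That count was 1 without SPI pool 2, 1 without E2 pool 1 and 0 without E2 pool 2 or 3. Nothing particular to osteoblasts is read from it.

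Osteoclast genes went the other way, with 6 of 12 called higher with SPI and 0 higher with E2 (median 0.19, 4 to 6 without 1 pool). Over all genes the shares were 7.91% and 9.46%. Without E2 pool 2, and in the model of 4 groups, 1 member was called higher with E2. Ctsk, the protease that digests bone collagen, was at 0.15, 0.11 and 0.10 with SPI and -0.15, -0.17 and -0.19 with E2 (difference 0.29, SE 0.0432, 1.22-fold, adjusted p = 0.00505). Car2, the carbonic anhydrase of acid secretion, differed by 0.44, the integrin Itgb3 by 0.36, the tartrate-resistant phosphatase Acp5 by 0.23, the gelatinase Mmp9 by 0.21 and the exchanger Slc4a2 by 0.19. Car2 is also a red cell gene and Itgb3 a platelet gene, and both of those lineages were higher with SPI in the same pools. Which cells the differences in any of the 6 called genes came from was not tested. The receptor Calcr and the factor Nfatc1 (-0.17) were not past.

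Connective tissue genes were mostly higher with E2. All 34 fibroblast, tendon and periosteum genes measured had a negative difference, and 23 were called higher with E2 and 0 higher with SPI (median -0.22, 15 without E2 pool 1). Aspn, a small proteoglycan of periosteum and tendon, was at -0.43, -0.50 and -0.23 with SPI and 0.26, 0.29 and 0.39 with E2 (difference -0.70, SE 0.0773, adjusted p = 0.00181). Thbs2 differed by -0.45, Prelp by -0.44, Ogn by -0.40, the tendon factor Scx by -0.38 and Postn by -0.25. The fibrillar collagen Col3a1 (-0.10) was not past. White adipocyte genes had 2 of 13 higher with E2, Plin4 (-0.51) and Fabp4 (-0.24), with a median near 0 (1 without SPI pool 2, E2 pool 1 or E2 pool 3), and 6 of 11 genes that mark brown fat were higher with E2 (median -0.31). Those 6 included Cpt1b (-0.46), Fabp3 (-0.44) and Cox8b (-0.44), which muscle also uses, while the uncoupling protein Ucp1 was higher with SPI (0.33). Endothelial genes had 1 of 15 called, Cldn5 (0.27), which brain endothelium also uses, and a median of -0.02, and 0 without SPI pool 2, E2 pool 1 or E2 pool 2. Of all genes 7.91% were called higher with SPI and 9.46% higher with E2. Nothing particular to the white adipocyte and endothelial lists is read from their counts.

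Genes that the study singled out for SPI and E2 differed between the treatments in part. Cav1, the coat protein of caveolae, was at -0.35, -0.26 and -0.29 with SPI and 0.01, 0.08 and 0.11 with E2 (difference -0.37, SE 0.0502, 1.29-fold, adjusted p = 0.00371), and its 3 probe sets gave -0.55 to -0.20. Its partner Cav2 differed by -0.30 and the muscle form Cav3 by -0.28, so that 3 of 7 caveola genes were called higher with E2, and Cavin2 (-0.40, adjusted p = 0.091) was not past. Over all genes 9.46% were called higher with E2. The SPI pools were the low ones for Cav1, with a CAS mean of 0.20. Atf3, a stress-induced transcription factor, was at -0.22, -0.29 and -0.12 with SPI and 0.39, 0.52 and 0.52 with E2 (difference -0.69, SE 0.0635, adjusted p = 0.00101), and here the SPI pools were near the CAS mean of -0.27. Calca, which encodes calcitonin and CGRP, was at 0.43, 0.47 and 0.38 with SPI and 0.28, 0.24 and 0.28 with E2 (difference 0.16, SE 0.0459, adjusted p = 0.0485), both groups above the CAS mean of -0.22.

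BMP signaling, in which secreted ligands act through receptor kinases and Smad proteins and are held back by binding antagonists, held several genes that were higher with E2. Bmp2 itself was not past the test, at -0.24, -0.22 and -0.04 with SPI and 0.01, -0.07 and about 0 with E2 (difference -0.14, SE 0.0642, adjusted p = 0.167), and its pools overlapped. The ligands Bmp3 (-0.37), Bmp4 (-0.35) and Bmp5 (-0.32) were called higher with E2, as were the receptors Acvr1 (-0.27) and Bmpr1a (-0.24) and the antagonists Nog (-0.28), Fst (-0.26) and the decoy receptor Bambi (-0.26). Of the Smad genes Smad9 (-0.16, adjusted p = 0.0409) was called, and Smad1 (-0.06), Smad4 (-0.15, adjusted p = 0.074) and Smad5 (-0.04) were not. The Smad9 call rests on the mean of 2 probe sets, at -0.26 and -0.05, of which 0 were called alone. Smad4 had nearly the same difference as Smad9. Together 10 of 26 genes were called higher with E2 and 0 higher with SPI (median -0.12), and the count was 4 without SPI pool 2 and 3, 4 and 5 without E2 pools 1, 2 and 3. Over all genes 9.46% were called higher with E2 and 7.91% higher with SPI. The targets Id1 (-0.08) and Id3 (-0.13) were not past, and Id2 (-0.19) was called.

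Wnt signaling genes went both ways. The coreceptor Lrp6 (-0.55) and the secreted antagonists Sfrp2 (-0.50) and Sfrp1 (-0.25) were called higher with E2, and the antagonist Wif1 (0.44), the feedback inhibitors Nkd2 (0.38) and Nkd1 (0.26) and the nuclear effectors Lef1 (0.31) and Tcf7 (0.21) higher with SPI, 8 of 28 in all. Of the 5 higher with SPI, 3 were called without SPI pool 2, SPI pool 3 or E2 pool 2, 1 without E2 pool 1 and 2 without E2 pool 3. Of all genes, 7.91% were called higher with SPI and 9.46% higher with E2. Nothing particular to Wnt signaling is read from these counts. Lef1 and Tcf7 are also lymphocyte genes.

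**Figure D5:**
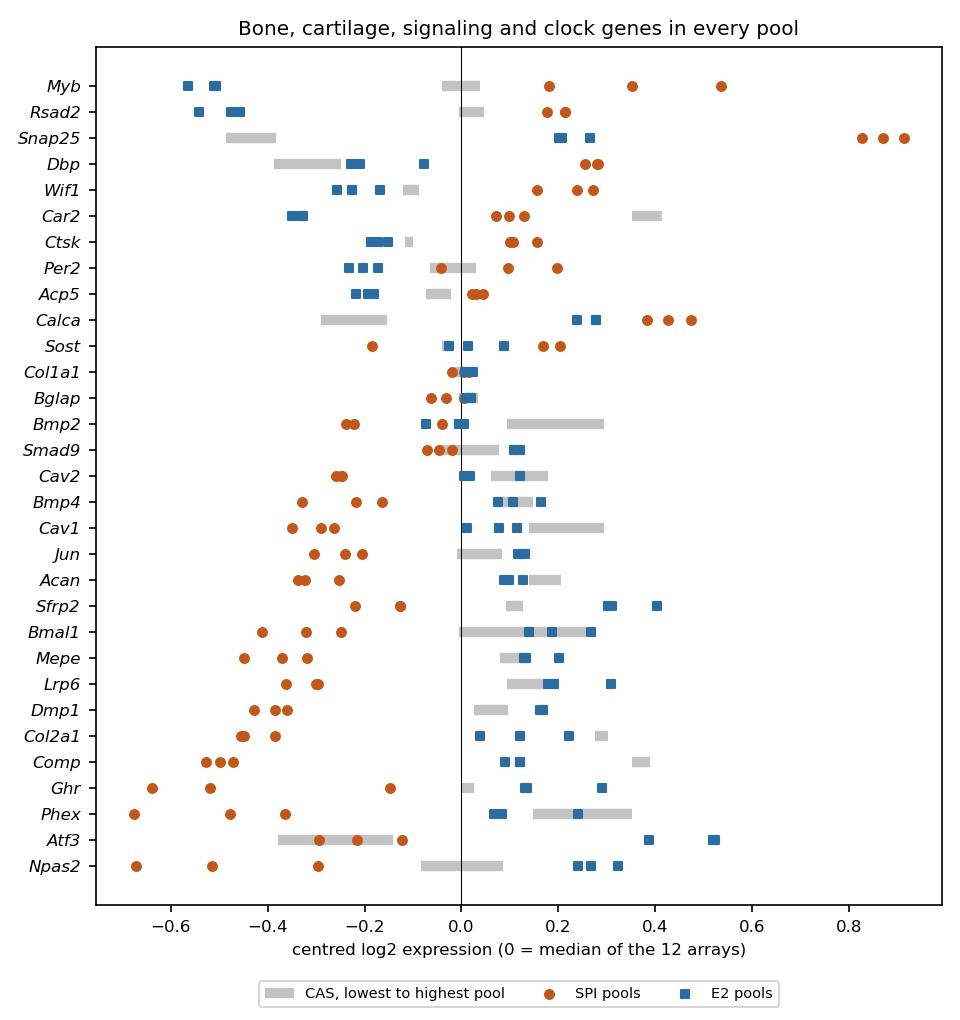
Centred log2 expression (x axis) of 31 bone, cartilage, signaling and clock genes (rows, ordered by SPI minus E2) in each SPI pool (circles) and E2 pool (squares), with the range of the CAS pools in grey. Sost, Col1a1 and Bmp2 overlap between SPI and E2, while for Dmp1 all SPI pools lie at -0.36 or below and all E2 pools at 0.16 or above.

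Estrogen receptor and target genes were called about as often as genes in general. Of 21 measured, where 17.4% of all genes were called, 2 were higher with SPI (Myb 0.88 and Igfbp4 0.31), 1 was higher with E2 and the median was 0.05. The one higher with E2 was Greb1, a gene of estrogen-receptor transcription, at -0.23, -0.15 and -0.02 with SPI and 0.28, 0.26 and 0.17 with E2 (difference -0.37, SE 0.0651, adjusted p = 0.00937). Its 2 probe sets disagreed, at -0.86 and 0.13, so that the call rests on 1 of them. The receptor genes Esr1 (0.11) and Esr2 (0.12) and the target Pgr, at a difference near 0 (adjusted p = 0.98), were not past the test.

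Growth hormone and insulin-like growth factor genes held one of the largest differences. Igfbp2, a binding protein of IGFs, was at -0.59, -0.48 and -0.59 with SPI and 0.48, 0.50 and 0.62 with E2 (difference -1.09, SE 0.0595, 2.12-fold, adjusted p = 0.00022), and both groups lay above the CAS mean of -1.37. The growth hormone receptor Ghr was at -0.64, -0.52 and -0.15 against 0.14, 0.13 and 0.29 (difference -0.62, SE 0.122, adjusted p = 0.0142). The adaptor Irs1 (-0.37) and Igfbp6 (-0.25) were also higher with E2, whereas Igf1 (0.03), Igf2 (0.02) and Igf1r (0.01) were not past. The list had 5 of 17 called higher with E2 and 1 higher with SPI, Igfbp4 (0.31), against 9.46% and 7.91% of all genes. The 5 became 4 without SPI pool 1, 1 without SPI pool 2 or E2 pool 3 and 2 without E2 pool 1 or E2 pool 2. Igfbp4 stayed called in each fit without 1 pool. Ptgds, the lipocalin-type prostaglandin D synthase, was at -0.02, -0.07 and -0.14 with SPI and 0.90, 0.89 and 0.94 with E2 (difference -0.98, SE 0.0492, adjusted p = 0.000167), and its CAS mean was 0.04. Chsy3, a chondroitin synthase, completed the 10 largest on this side, at -0.96, -0.14 and 0.03 with SPI and 0.37, 0.69 and 0.69 with E2 (difference -0.94, SE 0.24, adjusted p = 0.0347), with SPI pool 1 far below the other SPI pools.

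Of 14 clock genes, 3 were called higher with SPI and 5 higher with E2, against 7.91% and 9.46% of all genes. In the mammalian clock Bmal1 pairs with Clock or Npas2 to drive Per, Cry and Dbp, and the Per and Cry proteins repress that pair. The activators were higher with E2, with Npas2 at -0.67, -0.52 and -0.30 with SPI and 0.24, 0.27 and 0.32 with E2 (difference -0.77, SE 0.0914, adjusted p = 0.00217), Bmal1 at a difference of -0.52 (SE 0.0599, adjusted p = 0.00197) and Clock at -0.30. Of their targets Dbp was at 0.28, 0.26 and 0.28 with SPI and -0.23, -0.21 and -0.08 with E2 (difference 0.44, SE 0.0537, adjusted p = 0.00234), and Per2 (0.29) and Per3 (0.17) were also higher with SPI. Cry1 (-0.37) and Nr1d1 (-0.31), which are targets as well, were higher with E2, and Per1 (0.06) was not past. The 3 genes called higher with SPI fell to 1 without SPI pool 2 or any 1 E2 pool and to 2 without SPI pool 3. Nothing particular to the clock is read from the count higher with SPI. The count higher with E2 was 4 or 5 in each fit without 1 pool. By the study's methods all rats were killed soon after lights-on.

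Immediate early genes had 6 of 23 called higher with E2 and 0 higher with SPI (median -0.06, 4 or 5 higher with E2 without 1 pool). Beside Atf3 the called genes included Jun (-0.37), the phosphatase Dusp1 (-0.37) and Klf4 (-0.35), and Fos (-0.13) was not past. Interferon and antigen presentation genes had 5 of 21 higher with SPI, led by Rsad2, an antiviral enzyme (0.69, SE 0.0456, adjusted p = 0.000342), and 1 higher with E2, RT1-Bb (-0.27), while Isg15 (0.05), Irf7 (0.01) and Mx1 (-0.08) were not past. Its 5 became 3 without SPI pool 1, 1 without SPI pool 2 and 2, 2 and 1 without E2 pools 1, 2 and 3, and RT1-Bb was lost without any 1 E2 pool. The hypoxia list had 4 of 14 higher with E2 (median -0.14, 0 without any 1 E2 pool, 1 without SPI pool 2 and 2 without SPI pool 1 or 3), of which Egln3, an oxygen-sensing hydroxylase, had the largest difference (-0.48). Fatty acid synthesis had 3 of 8 higher with E2 (Scd -0.27, Fasn -0.17 and Me1 -0.17), and 1 without SPI pool 2, SPI pool 3 or any 1 E2 pool. Cholesterol synthesis had 2 of 17 higher with SPI (Mvd 0.22 and Cyp51 0.20) with a median of 0.04, xenobiotic and oxidative stress genes 1 of 11 each way (Hmox1 0.25 and Nqo1 -0.34), plasma protein genes 1 of 14 (Rbp4 0.24) and melanocyte genes 2 of 7 higher with E2 (Tyrp1 -0.44 and Mitf -0.26). Beside these counts stand the 7.91% and 9.46% of all genes called higher with SPI and with E2, and nothing particular to the 4 lists is read from them. The cholesterol calls became 1 without SPI pool 1 or 3 and 0 without SPI pool 2 or any 1 E2 pool, the melanocyte calls 1 without any 1 E2 pool, the plasma protein call 0 without E2 pool 1 or 3 and 2 without SPI pool 3, and the higher xenobiotic call 0 without E2 pool 1 and 2 without SPI pool 1. Eif2s3y, placed on chromosome Y by the reference although all rats were female, was at 0.26, 0.33 and 0.86 with SPI and 0.01, 0.02 and 0.19 with E2 (difference 0.41, adjusted p = 0.107) against a CAS mean of -1.97, and Uty (-0.10) and Xist (about 0) were not past either.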

How the data were processed

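RNA of 12 pools of female rat tibia was measured on Affymetrix arrays, with groups assigned by sample title. The authors applied RMA with log2 transformation, then per-chip and per-gene normalization in GeneSpring, and the deposited log2 values are centred on 0 for each probe set over the 12 arrays. GCOS and RMA are named in the submitters' processing notes without a version. No column of sample values was left unmapped (0). Of 31099 probe sets 57 controls were left out. A single symbol was given for 20826 of the other 31042, several for 436 and none here for 9780. Gene values are means over probe sets with 1 symbol (14217 genes, 4525 with more than 1 probe set). Signal over background could not be read, and precision is set by having 3 arrays a group.

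The 6 SPI and E2 arrays were fitted with limma 3.58.1 in R 4.3.3, without covariates, with Benjamini-Hochberg adjustment across the whole table. The members and the 40 gene lists were chosen with earlier results of these data known. Of 724 listed genes 630 were measured and 94, Runx2 among them, were not analysed here. Named genes were the 10 largest called differences each way with pools apart, genes the study names, and list members. The fit was tested on simulated data, where it found most changed genes and the share of false calls was above the nominal level. Same-numbered SPI and E2 pools did not deviate together (correlations -0.03, -0.047 and 0.158), so that numbers were not used as pairs. Alternatives were a model of 4 groups, a replicate block, quantile normalization, median centring, robust variances and array weights. Further ones were an analysis of variance of SPI against E2, other summaries per gene, other readings of the scale and leaving out each pool. The paper names analysis of variance for its data in general and states no such test for single genes of the arrays.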

Additional observations from a re-analysis of the deposited data

How the results depend on the processing

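The number of calls depended on the processing, and none of the named or listed genes that were called changed sign under the alternatives run. The balance of calls turned in some: of called probe sets, 47.3% were higher with SPI and 51.1% without E2 pool 3, and the Wnt list went from 5 higher with SPI and 3 with E2 to 1 and 2 without E2 pool 1. Against 3190 probe sets, the model of 4 groups over all 12 pools called 5195 and the fits without 1 pool 1071 to 2903. The analysis of variance of SPI against E2, unadjusted, called 7408. Against 2470 genes, the unadjusted analysis of variance called 4116, genes with 1 probe set only 1605 and the fits without 1 pool 1186 to 2268. Of the 269 listed genes called, 176 were called among genes with 1 probe set only and 167 to 252 without 1 pool, the fewest without E2 pool 1 (167) and E2 pool 3 (179). The count of 318 probe sets at 1.5-fold became 1375 with the values read as natural logarithms and 302 to 445 without 1 pool. With the pool number as a replicate block, which the correlations of same-numbered pools did not bear out, 1955 probe sets and 1842 genes were called. The remaining alternatives stayed within 1.5 times these counts. Fewer pools and fewer genes account by construction for part of the lower counts, and otherwise the cause was not tested. Of the 20 genes with the largest differences, Chsy3 (adjusted p = 0.0347) was past the threshold in 10 of 15 alternatives, its adjusted p reaching 0.159, Cfap20dc in 14 of 15, reaching 0.0538, and the other 18 in all that were run. Because the centred values hold no level, what lies near background is unknown.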

Other observations

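The genes with the next largest differences outside the lists were looked up after their values were seen, and they are given as values only. Several of those higher with SPI are genes of central neurons. Htr2c, a serotonin receptor of brain and choroid plexus, was at 1.02, 1.03 and 0.86 with SPI and -0.33, -0.13 and -0.18 with E2 (difference 1.18, SE 0.0711, adjusted p = 0.000313). Gad1, the enzyme that makes the inhibitory transmitter GABA, was at 0.90, 1.07 and 1.03 against -0.06, -0.17 and -0.16 (difference 1.13, SE 0.0614, adjusted p = 0.00022), and Slc32a1, which loads GABA into vesicles, differed by 1.03 (SE 0.165, adjusted p = 0.00663). Lamp5 differed by 1.12, Gpr37, a receptor of oligodendrocytes, by 1.07 and Aldoc, an aldolase of brain, by 0.85. In all 6 genes every SPI pool lay above every E2 pool, by the rule that chose them, and the CAS means lay between -0.31 and 0.15.

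On the other side, Tmem38b, a potassium channel of internal membranes linked to brittle bone disease, was at -0.55, -0.45 and -0.30 with SPI and 0.38, 0.44 and 0.43 with E2 (difference -0.85, SE 0.0676, adjusted p = 0.000608). Plin5, a lipid droplet protein of oxidative muscle, differed by -0.79, C1qtnf3, a secreted protein of cartilage and fat, by -0.78, the amino acid transporter Slc38a4 by -0.76 and Tmem182, a muscle membrane protein, by -0.75. Acyp2 (-0.84, SE 0.206, adjusted p = 0.0315) had one SPI pool, at -0.08, far from the other SPI pools at -0.98 and -0.66.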
